A study of Mus musculus with 6 samples.

Results

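The SWI/SNF (BAF) complexes are large assemblies that use the energy of ATP to slide or evict nucleosomes. Each complex holds a single ATPase, SMARCA4 (BRG1) or SMARCA2 (BRM), on a scaffold of SMARCC, SMARCD and SMARCB1 proteins, and its large ARID1 subunit marks the canonical BAF form. The ATPases and several other subunits are encoded by paralogs that replace each other in a complex, and mutations of ATPase, SMARCB1 and ARID1 genes in humans cause Coffin-Siris and Nicolaides-Baraitser syndromes, in which the face is affected. Here 10 subunit genes were described out of 38553 genes with a deposited value, chosen by symbol as the ATPases *Smarca2* and *Smarca4*, the scaffold genes *Smarcb1*, *Smarcc1*, *Smarcc2*, *Smarcd1*, *Smarcd2* and *Smarcd3*, and the ARID genes *Arid1a* and *Arid1b*. The study names *Smarca2* among genes lowered in mutants. It reports a reduction by quantitative PCR and lists the gene as both alternatively spliced and differentially expressed. The values below are per gene, so they do not bear on single transcripts. The set was chosen with the control and mutant values known. The genotype differences of these genes are therefore given as a description with no p-values, and where subunits are counted past a threshold the count is printed beside that of all genes and nothing is read from it.

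RNA-Seq was performed on craniofacial tissue of mouse embryos at E12.5 (embryonic day). The 3 controls were *Rbfox2* flox/flox without Cre, and the 3 mutants were Pax3Cre/+:Rbfox2 flox/flox. All 6 samples thus carried floxed alleles of *Rbfox2*, which encodes an RNA-binding splicing regulator, and only the mutants carried the *Pax3* Cre knock-in allele, so that effects of that allele and of *Rbfox2* loss cannot be told apart. Pax3Cre is active in the neural crest and also in paraxial mesoderm and somite derivatives, the mice were on mixed genetic backgrounds, and the dissected tissue held cells outside the Cre lineage. In such bulk samples, fewer cells of a type and less RNA per cell cannot be told apart. Embryo sex may differ between the groups as well, since the study lists an *Xist* transcript as lower in mutants.

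*Rbfox2* had an FPKM (fragments per kilobase of gene, scaled by the mapped fragments of the sample) of 58.4, 65.0 and 61.3 in control replicates 1, 2 and 3 and of 38.1, 36.3 and 34.3 in mutant replicates 1, 2 and 3. The mutant mean was 58.8% of the control mean (exact two-sided permutation test, p = 0.1, the smallest p that 3 samples against 3 can give). The FPKM of all genes added up to between 528123 and 590174 in a sample, and how many reads each value rests on is not known. Replicate 1 of each group stood apart from the other 4 samples. The first principal component of the 10061 genes tested, those above an FPKM of 5 in every control or in every mutant, carried 54.7% of the variance and placed these samples at 19.1 and 17.0, against -11.01 to -7.55 for the others. All 11 marker genes of cranial mesenchyme were above 0 in every sample, with a summed FPKM of 788 to 1039 in controls and 793 to 831 in mutants. Neuronal markers summed to 846 to 909 in controls and 981 to 1084 in mutants.

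Rbfox proteins bind the RNA motif UGCAUG, written TGCATG in DNA letters, and the coding sequences of both ATPases hold it at a similar place. The 30-base windows around the motif (in capitals) are shown for the ATPase genes, because *Smarca2* is the member named by the study and *Smarca4* is the paralog it is compared with. The windows are in transcript direction from GENCODE M21 on GRCm38.
Smarca2, coding exon 7, chr19:26648993-26649022, plus strand: gaggtggtggccTGCATGcggagggacacc
Smarca4, coding exon 8, chr9:21639227-21639256, plus strand: gaggtggtggtgTGCATGcgaagagacaca
Smarca4, exon 34 in the 3′ UTR, chr9:21703222-21703251, plus strand: tagctcagtggaTGCATGcgcgtgccggcc
The coding windows of the paralogs were identical at 25 of 30 positions. Counted from the 5′ end of the window, with the *Smarca2* base first, the differences were C11T, C12G, G21A, G24A and C30A, and none lay in the motif. The motif started at base 1228 of the *Smarca2* coding sequence and at base 1267 of the *Smarca4* coding sequence.

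In the longest coding transcript of each gene, searched on the transcript strand only, 7 of the 10 subunits held the motif at least once, with 10 sites in all. The share of all tested genes with a coding transcript that held it was 55.7% (5439 of 9771). *Smarca2* held 1 site and *Smarca4* 2 sites, *Arid1a* and *Arid1b* 2 sites each in their coding sequence, *Smarcc2* 1 coding site, and *Smarcc1* and *Smarcd2* 1 site each in the 3′ UTR. The *Smarcd2* site lies on the minus strand of chromosome 11 from 106263726 to 106263731. *Smarcb1*, *Smarcd1* and *Smarcd3* had no match in these transcripts. Per kilobase, *Smarca2* held 0.169 sites, against 0.314 in *Smarca4* and a median of 0.2 over all these genes. Of the gene parts it examined, the study found this motif significantly enriched in introns of its target genes alone. Introns, where Rbfox proteins often bind, were not analysed here, and a match of letters is not a bound site.

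**Figure D1:**
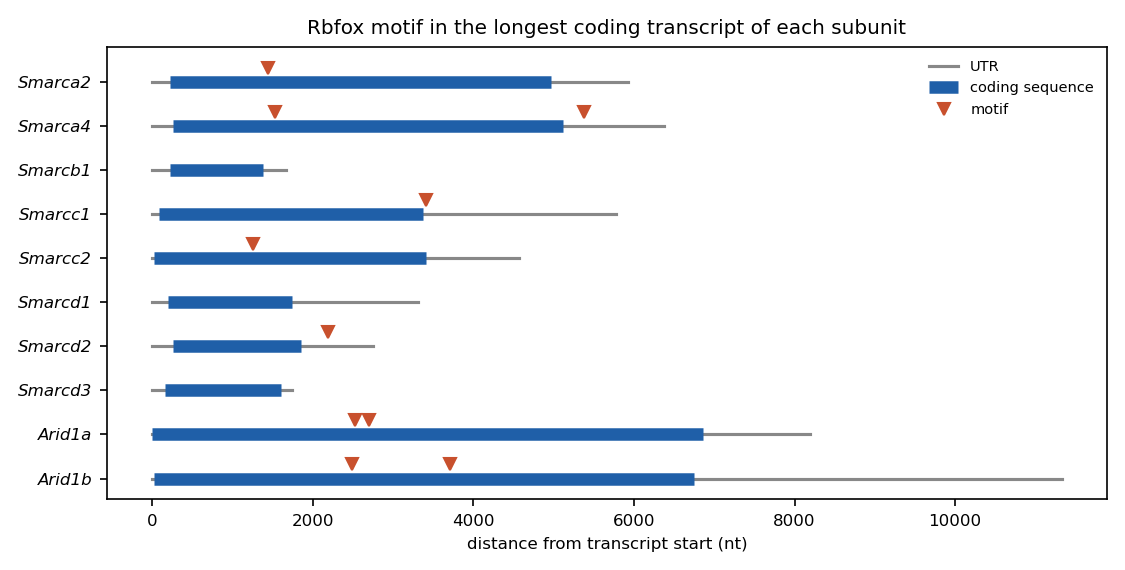
TGCATG matches along the longest protein-coding transcript of each subunit gene, with the distance from the transcript start in nucleotides on the x axis; thick bars are coding sequence, thin lines are UTRs and triangles are matches. The 10 matches lie in 7 of the 10 genes, and *Smarcb1*, *Smarcd1* and *Smarcd3* have none.

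*Smarca2* (ENSMUSG00000024921, chr19:26605050-26778322, plus strand of GRCm38) encodes the ATPase BRM. Its FPKM was 40.7, 77.1 and 75.0 in control replicates 1, 2 and 3 and 37.1, 59.0 and 50.4 in mutant replicates 1, 2 and 3. The mutant sample was lower than the control sample of the same number in each case, but the groups overlapped, since control replicate 1 lay below mutant replicates 2 and 3. The means were 64.3 ± 20.4 and 48.8 ± 11.04 (SD, n = 3 each), a log2 difference of -0.36 (standard error 0.27) on the log2(FPKM + 1) scale, on which all log2 differences between samples are given. By replicate number the difference was -0.13, -0.38 and -0.56 for replicates 1, 2 and 3. Samples left out in turn moved it by more than 1.5 times, to -0.65 without control replicate 1, -0.18 without mutant replicate 1, -0.20 without control replicate 2 and -0.22 without control replicate 3. With the replicate number as a block the standard error was 0.087.

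*Smarca4* (ENSMUSG00000032187, chr9:21616169-21704230, plus strand) encodes the alternative ATPase BRG1. It was at 74.2, 94.2 and 96.3 FPKM in controls and at 76.5, 99.8 and 103.0 in mutants, so the groups overlapped and each mutant sample was slightly above the control of its number. The log2 difference was 0.074 (standard error 0.15; 0.046 with the block), opposite in sign to that of *Smarca2*. With a sample left out in turn it ranged from -0.044 (without control replicate 1) to 0.21 (without mutant replicate 1).

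Of the summed FPKM of the ATPase genes, *Smarca2* made up 35.5%, 45.01% and 43.8% in control replicates 1, 2 and 3 and 32.6%, 37.1% and 32.9% in mutant replicates 1, 2 and 3. The mean share was 41.4% ± 5.196 (SD, n = 3) for controls and 34.2% ± 2.53 (SD, n = 3) for mutants. The groups overlapped here too, since control replicate 1 lay below mutant replicate 2. The share was lower in the mutant of each replicate number, with differences of -2.81, -7.88 and -10.9 percentage points for numbers 1, 2 and 3. The summed FPKM of both genes was 115, 171 and 171 in controls and 114, 159 and 153 in mutants, so that the replicates numbered 1 were the lowest of their group in either genotype.

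**Figure D2:**
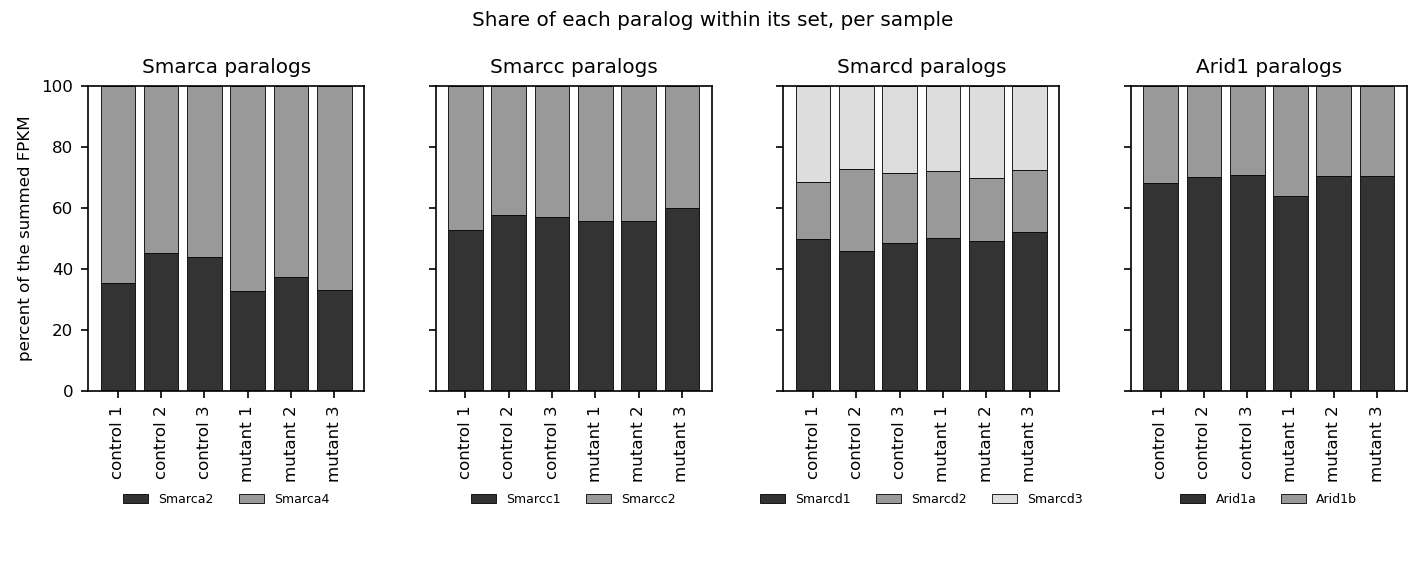
Percent of the summed FPKM that each paralog contributes to its set, for the Smarca, Smarcc, Smarcd and Arid1 paralogs, with a stacked bar for each of the 6 samples. *Smarca2* contributes 32.6% to 45.01% of its pair, and its share is lower in the mutant than in the control of the same replicate number.

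*Smarcb1* (ENSMUSG00000000902, chr10:75896769-75921617, minus strand), a core subunit that contacts the nucleosome, had the highest mean level of the 10 genes. Its FPKM was 102.8, 122 and 128 in controls and 89.8, 121 and 113 in mutants. The groups overlapped, and the log2 difference of -0.13 (standard error 0.14) had the same sign for each replicate number (-0.19, -0.012 and -0.18).

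*Smarcc1* (ENSMUSG00000032481, chr9:110117708-110240178, plus strand) and *Smarcc2* (ENSMUSG00000025369, chr10:128459248-128490482, plus strand) encode the paired scaffold proteins BAF155 and BAF170. *Smarcc1* was at 63.3, 93.8 and 89.2 FPKM in controls and at 70.9, 84.4 and 94.1 in mutants, with a log2 difference of 0.029 (standard error 0.17). *Smarcc2* was at 56.9, 69.4 and 67.6 in controls and at 56.2, 67.4 and 63.3 in mutants, with a log2 difference of -0.051 (standard error 0.11). The groups of both genes overlapped widely. The difference of *Smarcc2* was negative for each replicate number, while that of *Smarcc1* was not of 1 sign.

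The 3 *Smarcd* genes encode the BAF60 proteins, which link the complex to transcription factors. *Smarcd1* (ENSMUSG00000023018, chr15:99702129-99713991, plus strand) was at 71.6, 59.1 and 65.7 FPKM in controls and at 65.6, 67.5 and 67.9 in mutants. *Smarcd2* (ENSMUSG00000078619, chr11:106263179-106272972, minus strand) was at 26.9, 34.7 and 31.3 in controls and at 28.7, 28.5 and 26.7 in mutants. Their groups overlapped, with log2 differences of 0.037 (standard error 0.089) and -0.13 (standard error 0.10). *Smarcd3* (ENSMUSG00000028949, chr5:24590818-24624411, minus strand), the form known from heart and muscle, was at 45.2, 35.3 and 38.7 in controls and at 36.6, 41.5 and 35.98 in mutants, with a log2 difference of -0.059 (standard error 0.11). None of the 3 genes had the same sign for every replicate number.

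*Arid1a* (ENSMUSG00000007880, chr4:133679008-133756769, minus strand) and *Arid1b* (ENSMUSG00000069729, chr17:4994332-5347656, plus strand) encode alternative DNA-binding subunits. *Arid1a* was at 30.98, 43.5 and 41.5 FPKM in controls and at 34.9, 39.1 and 42.6 in mutants, with a log2 difference of 0.017 (standard error 0.14). *Arid1b*, the lowest of the 10 genes, was at 14.5, 18.6 and 17.2 in controls and at 19.8, 16.3 and 17.9 in mutants, with a log2 difference of 0.10 (standard error 0.12). Both overlapped between groups. For *Arid1b* the replicates did not share a sign, with 0.43 between the first, -0.18 between the second and 0.057 between the third.

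**Figure D3:**
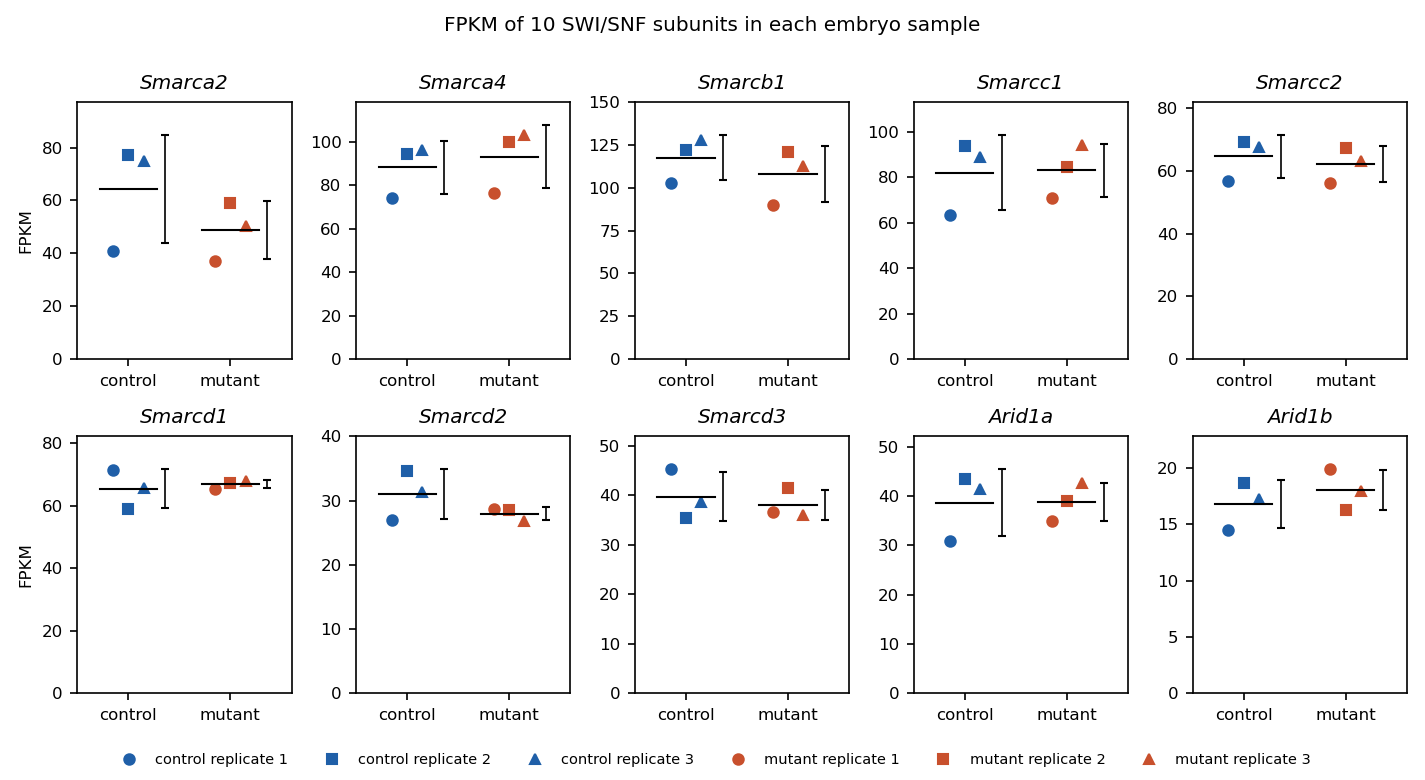
FPKM (y axis, from 0, a scale for each gene) of the 10 subunit genes in the 3 control and 3 mutant samples; points are samples, with circles, squares and triangles for replicates 1, 2 and 3, horizontal lines are group means and bars beside them the SD. The groups of all 10 genes overlap, and *Smarca2* shows the lowest values in replicate 1 of both groups.

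All 10 genes passed the filter on low values. Over the 10061 genes tested with limma, 0% had an adjusted p under 0.05 (167 genes, 1.66%, had an unadjusted p under 0.05, of which 0.954% of all genes tested were lower and 0.706% higher in mutants), and none of the 10 subunits did at either threshold. With the replicate number as a block, 1 of the 10 subunits had an unadjusted p under 0.05 in limma, against 6% of all genes tested. None had an adjusted p under 0.05. Of the 10 subunits, 5 were lower and 5 higher in mutants (4750 and 5311 of all genes tested), with a median log2 difference of -0.017 against 0.0057 over all genes tested. This median was not stable, at -0.13 without control replicate 1, 0.027 without mutant replicate 1, 0.013 without control replicate 3 and 0.018 with Y-linked expression as a covariate. The median size of the difference was 0.067, against 0.054 over all genes. None of the subunits had groups that did not overlap, which was so for 5% of all genes tested (2.37% lower and 2.63% higher in mutants). *Smarca2*, *Smarcb1* and *Smarcc2* were lower in the mutant of each replicate number (13.1% of all genes tested) and *Smarca4* was higher in each (13.6% of all genes tested).

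**Figure D4:**
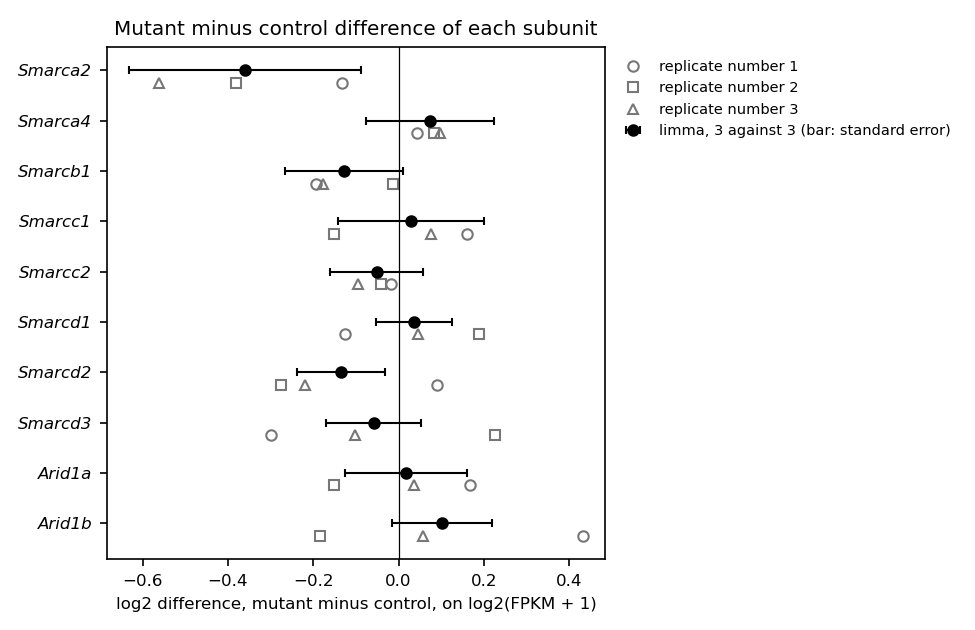
Log2 difference between mutant and control on the log2(FPKM + 1) scale for the 10 subunit genes; filled points are the limma estimate over 3 samples against 3 with bars of 1 standard error, and open circles, squares and triangles are the differences between samples with the same replicate number. *Smarca2* has the most negative estimate (-0.36) and *Arid1b* the most positive (0.10).

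With only replicates 2 and 3 compared, the groups of 6 subunits did not overlap, lower in mutants for *Smarca2*, *Smarcb1*, *Smarcc2* and *Smarcd2* and higher for *Smarca4* and *Smarcd1*. Over all genes tested, groups of this size did not overlap in 45%, lower in mutants in 19.9% and higher in 25%. The log2 difference of *Smarca2* was then -0.47 (standard error 0.086) and that of *Smarcd2* -0.25.

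For 8 of the 10 subunits, all but *Smarcd2* and *Arid1b*, the mean of both replicates 1 differed from the mean of the other 4 samples by more than the mutants differed from the controls, as it did for 77.5% of all genes tested. Both replicates 1 were below the other 4 samples for *Smarca2*, *Smarca4*, *Smarcb1*, *Smarcc1*, *Smarcc2* and *Arid1a*, which is 6 of 10 subunits against 34.7% of all genes tested. The difference was -0.71 for *Smarca2*, -0.42 for *Smarcc1*, -0.38 for *Smarca4*, -0.33 for both *Smarcb1* and *Arid1a*, and -0.24 for *Smarcc2* (log2). *Smarcd1* and *Smarcd3* lay the other way, at 0.075 and 0.10, with overlap between the sets of samples.

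Several marker lists moved with the same samples. Proliferation markers summed to 610 to 639 FPKM in both replicates 1 and to 769 to 860 in the other samples, with 5 of 6 markers below all the others. All 5 endothelial markers were also below, with sums of 69.0 to 73.9 against 83.9 to 97.8. Epithelial markers summed to 121 in both replicates 1 and to 128 to 211 in the others (3 of 7 below), and skeletal muscle markers to 126 to 131 against 148 to 326 (4 of 6 below). Erythroid markers were higher, at 2176 to 2292 against 1125 to 1749, with 2 of the 4 genes in the table above all the others (the list has 6). The lower range had a gap by genotype. Mutant replicates 2 and 3 stood at 1749 and 1708, and the controls of these numbers at 1125 and 1162. Choroid plexus markers were lowest in those controls, at 11.4 and 14.1 FPKM, with 39.4 to 86.8 in every remaining sample. The same controls held the highest *Smarca2* values, 77.1 and 75.0. They also held the highest sums of skeletal muscle (326 and 206), epithelial (211 and 182) and cranial mesenchyme markers (1039 and 901). For mutant replicates 2 and 3 these sums were 186 and 148, 168 and 128, and 831 and 793. The skeletal muscle and epithelial sums ranked the 6 samples in the same order as *Smarca2*. No other marker list was highest in both of these controls. No gene of these lists was at 0 in any sample, and the part of these cell types in the levels of the subunits was not tested.

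**Figure D5:**
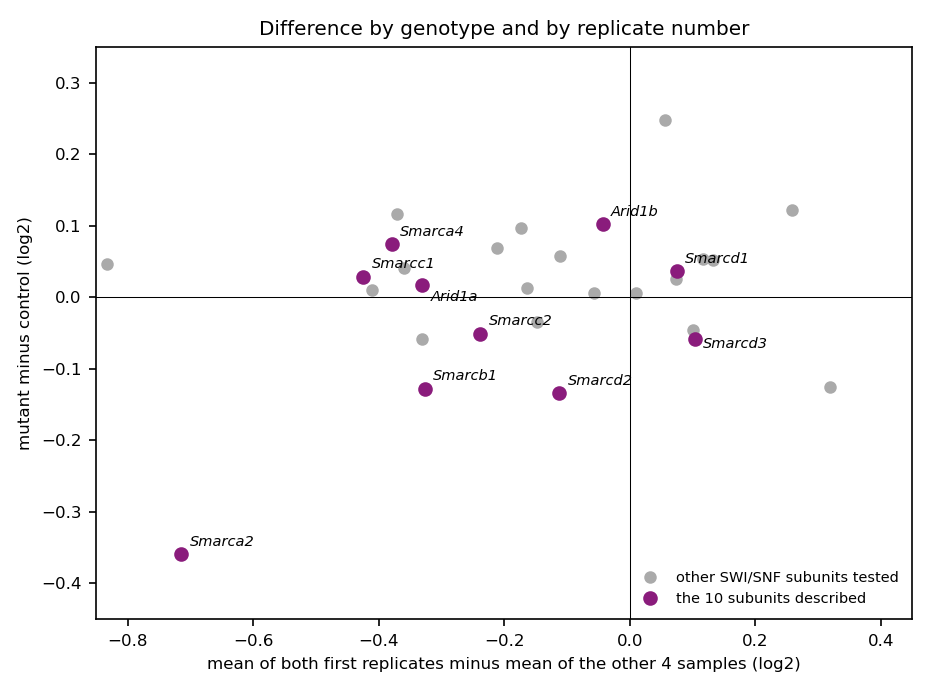
Mutant minus control (y axis) against replicates 1 minus the other 4 samples (x axis), both as log2 differences, for the 10 subunits (purple, named) and 19 other SWI/SNF subunits tested (grey). *Smarca2* lies at -0.71 and -0.36, the lowest point on the y axis, and *Actl6b*, at 0.25, is the highest.

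Which paralog has the higher FPKM was asked within each sample, a measure that the choice of the genes did not use. FPKM is scaled by gene length, but the lengths behind the deposited values are not known. A length that is off would shift a ratio alike only in samples scaled with the same length. Whether 1 length was used for all samples is not known. Among genes with very low FPKM, at most 1.58% shared 1 ratio between a replicate 1 and a sample of another number. Between samples numbered 2 and 3 this was 16.9% to 31.2%, and the cause was not tested. The test below asks whether the mean log2 ratio of FPKM differs from 0. A length that is off could by itself make or remove such a difference. The test therefore does not tell which paralog has more transcripts, and its p does not measure the spread of a ratio. *Smarca4* exceeded *Smarca2* in 6 of 6 samples, by 1.65-fold on average (1.22-fold to 2.06-fold; mean log2 ratio 0.72 ± 0.33, SD, n = 6; exact two-sided sign-flip permutation test, adjusted p = 0.03125 over 6 pairs). *Smarcd1* exceeded *Smarcd2* by 2.25-fold and *Smarcd3* by 1.71-fold, *Arid1a* exceeded *Arid1b* by 2.22-fold and *Smarcc1* exceeded *Smarcc2* by 1.29-fold, each in 6 of 6 samples and with the same exact permutation p, which is the smallest that 6 samples can give. The test takes the 6 samples as independent and both genotypes together, and with same-numbered samples taken as 1 unit no p below 0.25 could be had. *Smarcd2* was at 0.757 times the level of *Smarcd3*, lower in 6 of 6 samples. No stretch of 31 bases was shared between the longest coding transcripts of any of the 6 pairs.

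The log2 ratio of *Smarca4* to *Smarca2* was 0.50 ± 0.31 for the control group and 0.94 ± 0.16 for the mutant group (SD, n = 3 each). The *Arid1a* to *Arid1b* ratio was 1.20 ± 0.088 and 1.11 ± 0.25, and the *Smarcc1* to *Smarcc2* ratio 0.33 ± 0.15 and 0.41 ± 0.14. These values are a description by genotype.

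In order of mean FPKM over the 6 samples, the subunits were *Smarcb1* (113), *Smarca4* (90.6), *Smarcc1* (82.6), *Smarcd1* (66.2), *Smarcc2* (63.5), *Smarca2* (56.5), *Smarcd3* (38.9), *Arid1a* (38.8), *Smarcd2* (29.5) and *Arid1b* (17.4). *Smarcb1* was above *Smarca4*, *Smarca4* above *Smarcc1*, *Arid1a* above *Smarcd2* and *Smarcd2* above *Arid1b* in 6 of 6 samples. *Smarcd3* and *Arid1a* were higher in 3 samples each, and the order of *Smarcd1*, *Smarcc2* and *Smarca2* changed between samples, so these neighbours did not differ beyond the spread. Values per gene hide isoforms. *Smarca2* has 46 annotated transcripts, 37 of which start beyond the midpoint of the gene, and *4931403E22Rik* and *Gm20616* lie on its other strand, while the libraries were stranded but the sources used here do not state whether counting used the strand.

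Further SWI/SNF subunits were examined over all genes tested. Of 21 such genes (actin-related, BCL7, DPF, SS18, PBAF and ncBAF subunits), 19 were tested, and none had an adjusted or unadjusted p under 0.05 in limma, nor with the replicate block, under which 6% of all genes tested had an unadjusted p under 0.05. Among them 4 were lower and 15 higher in mutants, with a median log2 difference of 0.041 and a range from -0.13 to 0.25. Over all genes tested, 4750 were lower and 5311 higher, with a median of 0.0057, and nothing is read from the counts. *Actb*, which encodes the actin of the complex and of the cytoskeleton, was the most abundant at a mean FPKM of 1433, with a log2 difference of 0.013. *Gltscr1*, a ncBAF subunit, was the lowest of those tested at 8.48, with -0.13. The highest difference, named after its value was seen, was that of the neuronal subunit *Actl6b* (0.25, standard error 0.12, adjusted p = 0.99999 in limma), which in the complex of neurons takes the place of *Actl6a*. The summed neuronal markers were higher in every mutant than in every control, as were 5 of the 11 markers singly. The part of neurons in this value was not tested. *Dpf3* and *Gltscr1l* did not pass the filter, at mean FPKM of 2.60 and 4.44.

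The ATPases of other remodelling families (ISWI, CHD, INO80 and related) and the Polycomb subunits, which oppose SWI/SNF at many developmental genes, were examined in the same way. Of 20 entries for 19 ATPase genes, 19 were tested and none had an unadjusted or adjusted p under 0.05 in limma. Of these, 5 were lower and 14 higher in mutants, against 4750 and 5311 of all genes tested. *Chd3* had the highest mean FPKM (210, log2 difference -0.11), and *Chd5*, which did not pass the filter, the lowest (1.61). Of the ATPase entries tested, 16 had both replicates 1 below the other samples (84.2%), against 34.7% of all genes tested. The share was 47.4% in the list of further SWI/SNF subunits and 27.8% in the Polycomb list, and nothing is read from these counts. Of 20 Polycomb genes, 18 were tested and 0 had an adjusted p under 0.05. *Ezh1*, a methyltransferase of PRC2, was at 5.73, 5.34 and 5.28 FPKM in controls and at 4.83, 4.14 and 4.70 in mutants, a log2 difference of -0.22 (standard error 0.088, unadjusted p = 0.0426 and adjusted p = 0.99999 in limma). It passed the filter through the controls alone, which favours a gene lower in mutants, so its unadjusted p is no support for a difference. That p was between 0.0291 and 0.232 under the alternatives and missed its threshold with 5 of 6 samples left out in turn. *Rbbp7*, a histone-binding subunit, was the most abundant Polycomb gene (166, log2 difference -0.081) and *Cbx7*, untested, the lowest (0.490).

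Among all genes tested, the patterns most like that of *Smarca2* over the 6 samples were those of *Pdik1l* (Pearson r = 0.998), *Bin3* (r = 0.998) and *C87436* (r = 0.993). The most opposite were *Stom* (r = -0.994), *Nfatc2ip* (r = -0.994) and *Zfp689* (r = -0.992). The 6 samples share the gap between replicates 1 and the others, and 3.89% of all genes tested had an r above 0.9 with *Smarca2*, so these values describe these samples only.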

How the data were processed

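Poly(A) RNA of 3 control and 3 mutant samples was sequenced in stranded paired-end libraries. The submitters' processing notes name FastQC 0.11.4, STAR and Cuffdiff with GRCm38. The authors deposited an FPKM value for every gene in every sample, scaled by gene length and mapped fragments. The table of all samples and the tables of single samples held the same values (0 of 231318 differed). Whole reads were not recovered, so no count test was run. Groups and replicate numbers came from the labels, which call the samples biological replicates.

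Genes above an FPKM of 5 in every control or in every mutant were compared on log2(FPKM + 1). The tool was limma 3.58.1 (R 4.3.3), run with a trend on intensity, without covariates and with Benjamini-Hochberg adjustment over all 10061 genes. Paralog ratios were tested with an exact sign-flip permutation test. The fit was tested on simulated data with known changes and independent noise. The simulation held no gap between replicates 1 and the others, so it does not show how the fit performs on these samples. The replicate numbers are shared between groups, and within-group deviations of same-numbered samples correlated at 0.644, 0.258 and 0.513 for numbers 1, 2 and 3. For samples of different numbers the correlation was -0.68 to 0.40, highest between control replicate 3 and mutant replicate 2. The values thus set replicates 1 apart, but did not tell which samples of numbers 2 and 3 belong together. Pairing by number is therefore an assumption, since the labels name no litter or day. The block and the differences by replicate number rest on it. Gene positions, transcripts and motif windows came from GENCODE M21, and the motif was counted in the longest coding transcripts, a choice made after the data were seen, because gene bodies were not analysed here.

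The subunits, the 3 comparison lists and the 11 marker lists were chosen with earlier results of these data known. Genes named are the 10 subunits, *Rbfox2*, the genes of each list with an unadjusted p under 0.05 or the highest or lowest mean, and the 3 genes most like and most unlike *Smarca2*. Others are named as chosen after their values were seen. Alternatives were a pseudocount of 0.1, filters, scalings, the replicate block, no trend, a covariate of 4 Y-linked genes, and left-out samples.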

Additional observations from a re-analysis of the deposited data

How the results depend on the processing

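The sign of each subunit's log2 difference was kept under all 8 settings that changed the pseudocount, filter, scaling, trend, block or covariate. A change of filter, trend or balanced block leaves the difference of a gene as it is. Only the pseudocount, scaling and covariate settings could therefore have moved a sign. The sizes were less stable. With the Y-linked covariate the difference was 0.23 for *Smarca4*, 0.22 for *Smarcc1*, 0.15 for *Arid1a* and -0.050 for *Smarcb1*. That of *Smarca2* was then -0.29, with a standard error of 0.42 against 0.27 without the covariate. The adjusted p of *Rbfox2* in limma was 0.935 with this covariate. With 1 sample left out in turn it spanned -0.044 to 0.21 for *Smarca4*, -0.22 to -0.0027 for *Smarcb1*, -0.15 to 0.14 for *Smarcc1*, -0.14 to 0.020 for *Smarcc2*, -0.034 to 0.10 for *Smarcd1*, -0.23 to -0.052 for *Smarcd2*, -0.14 to 0.036 for *Smarcd3*, -0.13 to 0.11 for *Arid1a* and 0.0052 to 0.18 for *Arid1b*. In replicates 2 and 3 only, *Smarcc1*, *Smarcd3*, *Arid1a* and *Arid1b* had the other sign (-0.037, 0.061, -0.058 and -0.063). With 1 sample left out in turn, the number of subunits lower in mutants was 4 to 8 (8 without mutant replicate 3, against 5 with all samples), and the number with groups that did not overlap was 0 to 4 (4 without control replicate 1 and 1 without mutant replicate 1). It was 6 in replicates 2 and 3 only, where the groups did not overlap in 45% of all genes tested. Smaller groups overlap less often. The share over all genes was not computed for the sets with 1 sample left out, so nothing is read from these counts. The difference in the *Smarca2* share of the ATPase pair, -7.20 percentage points, was -2.81 between the first replicates only and -10.2 to -5.41 with 1 sample left out. *Rbfox2* passed the adjusted threshold in replicates 2 and 3 only (log2 difference -0.82, adjusted p = 0.0407 in limma, against 0.138 with all samples). The cause of these shifts was not tested. With the replicate block, the number of genes tested with an adjusted p under 0.05 was 0, as without it, while 604 genes (6%) had an unadjusted p under 0.05, against 167; the block changed no call by adjusted p for the genes named here. Paralog ratios kept their direction in every left-out set, but the exact test over 5 samples cannot pass its threshold. A single pair of first replicates gives no overlap count, and scaling a sample or adding a block cannot change a share within it, so these were not run. The number of samples and the unknown read depth limit all values.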
